A study of Arabidopsis thaliana with 9 samples.

Results

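Receptor-like proteins (RLPs) are plasma membrane proteins with leucine-rich repeats outside the cell, a single membrane span and a short cytoplasmic tail that carries no kinase. Because they lack a kinase, RLPs signal through partners, above all the adaptor kinase SOBIR1 and co-receptors such as BAK1. Many Arabidopsis RLPs recognise fragments of microbes and start pattern-triggered immunity, and others act in development or cell wall sensing. H3K4me3 is histone H3 trimethylated at lysine 4 and lies over the 5′ part of transcribed genes.

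The RLP family was followed here through peak lists of H3K4me3 in Arabidopsis thaliana seedlings. Its members were all protein-coding genes of a RefSeq gene table whose symbol is RLP followed by a number only, which gave 52 of 27444 genes on chromosomes 1 to 5. The numbers run to 57. RLP10 and RLP17 stand in the table under their developmental names CLV2 and TMM, RLP18 and RLP49 are transcribed pseudogenes, and RLP8 had no entry, so these were not members. Members were chosen by symbol, but the family was selected on peak lengths: those of RLP2, RLP23 and RLP38 in these libraries were already known, so the values of these 3 genes are a description. They are part of the fit across all genes, and nothing is read from their calls in it.

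Chromatin immunoprecipitation and sequencing (ChIP-seq) was done on 12-day-old seedlings of the mutant jmj28-2, the mutant atx1/2 and the wild-type accession Col-0, which is also the background of both mutants. The protein JMJ28 has a JmjC domain, which is typical of histone demethylases. The Trithorax-related proteins ATX1 and ATX2 methylate H3K4. All seedlings grew at 23 °C in days of 16 h of light on medium with 1% sucrose, and each genotype had 2 H3K4me3 libraries. The labels name the genotypes without describing the alleles or lines, and do not say whether replicates were grown separately, so p-values reflect how far these libraries vary, and that variation may be technical only.

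Each library is a list of 14291 to 14493 peaks on chromosomes 1 to 5, with no read counts, so the sequencing depth is unknown. The measures are the presence and length of a peak and the score the authors give it. Whole seedlings mix cell types, and a gene marked in few cells cannot be told apart from a gene weakly marked in all. Of 9 photosynthesis genes fixed as shoot markers, 6 had a peak in every library and CAB2 and CAB3 had none. An absent peak need not mean an absent mark, and the placement of reads among similar genes was not tested. Of 7 root genes only PIN2 and SCR had a peak, and RHD6, COBL9, IRT1, SHR and WOX5 had none in any library, whereas none of 8 seed storage genes had one. The libraries put a peak on 61.4% to 62.3% of all protein-coding genes.

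A gene was counted as having a peak in a library where at least 200 bp of its body lay in a peak. The jmj28-2 libraries had a peak on 29 and 27 of the 52 RLP genes, the atx1/2 libraries on 29 and 27, and the Col-0 libraries on 31 and 31. Summed over the family, peaks covered 49.2 and 47.0 kb of gene body in jmj28-2, 47.4 and 47.1 kb in atx1/2, and 57.3 and 51.6 kb in Col-0. Over the members with a peak in every library the sums were closer, at 44.6 and 44.2 kb in jmj28-2, 42.7 and 43.7 kb in atx1/2, and 45.7 and 45.1 kb in Col-0. The difference in the family sum thus lay mostly in members with a peak in some libraries only. Much of it came from RLP23 and RLP38, with mean differences from Col-0 of -2846 and -2276 bp in each mutant. RLP2, which had a peak in every library, differed by -1885.5 bp in atx1/2. These genes were known beforehand, so the lower sum is not a result about the family.

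Of the 52 RLP genes, 25 (48.1%) had a peak in all 6 libraries, against 59.3% of all protein-coding genes. A further 17 (32.7%) had no peak in any library, against 35.4% of all genes, and in these 17 not a single base lay in a peak. The other 10 (19.2%) had a peak in 1 to 5 libraries, against 5.37% of all genes. These 10 were RLP3, RLP15, RLP16, RLP22, RLP23, RLP27, RLP35, RLP38, RLP53 and RLP55. No test was made of these shares, and RLP23 and RLP38, known beforehand, are among the 10.

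**Figure D1:**
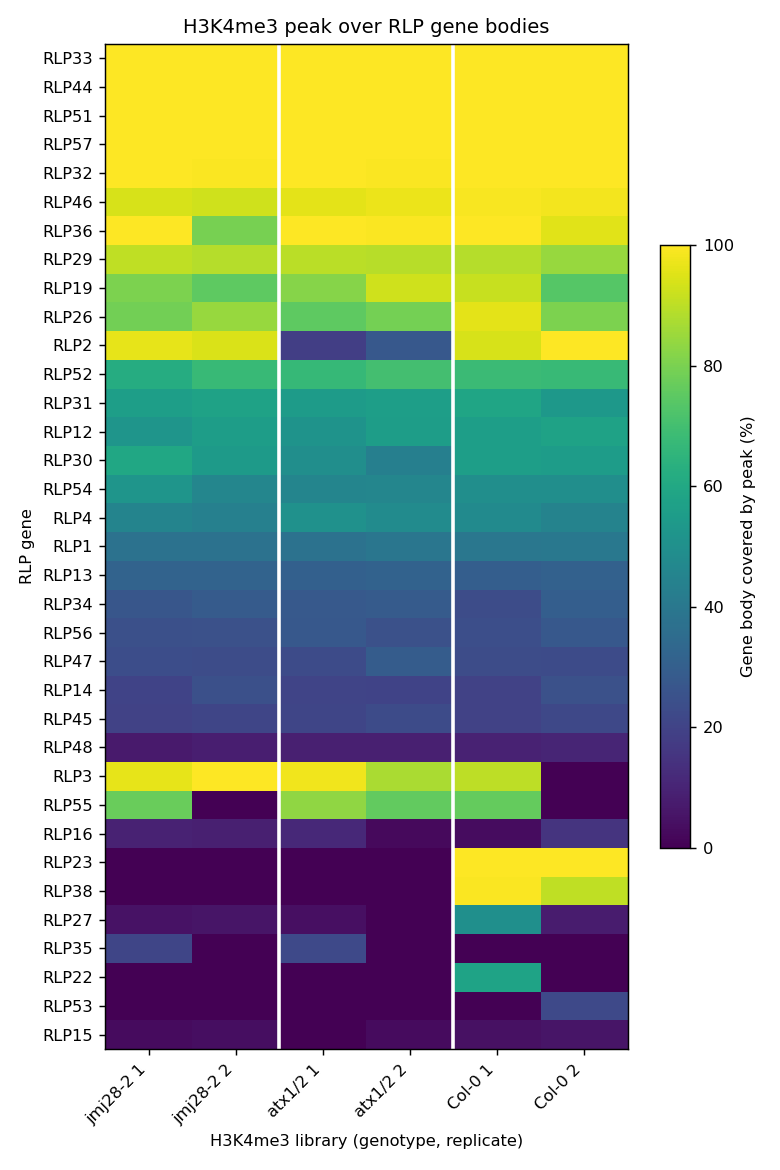
Share of each RLP gene body (%) covered by H3K4me3 peak in each library, for the 35 RLP genes with at least 200 bp of peak in 1 library or more. Rows run from members with a peak in all 6 libraries to those with a peak in few. RLP23 and RLP38 are covered in the 2 Col-0 libraries alone, and RLP2 is covered less in the 2 atx1/2 libraries.

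Among the RLPs with a known immune role, the mark ranged from complete coverage to none. RLP32, the receptor for the bacterial translation initiation factor IF1, had 3851 and 3835 bp of peak in jmj28-2, 3861 and 3842 bp in atx1/2, and 3861 and 3849 bp in Col-0. Its gene body is 3861 bp long, so it was covered almost from end to end in every library. RLP32 lies beside RLP33, whose whole body of 3307 bp was covered in all 6 libraries. In jmj28-2 replicate 1, both atx1/2 libraries and Col-0 replicate 1 a single peak of 7401 to 7501 bp spanned both genes (chromosome 3, 1644847 to 1652401, TAIR10, over all libraries). In jmj28-2 replicate 2 and Col-0 replicate 2 it was divided into a peak on each gene, so the division did not follow genotype.

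RLP1, also called ReMAX, which senses a protein of Xanthomonas, had 1986 and 1993 bp of peak in jmj28-2, 1995 and 2083 bp in atx1/2, and 2092 and 2108 bp in Col-0. The bulk of it was a peak at the end of the gene with the lower coordinates, and a stretch of 329 to 401 bp at the other end belonged to a peak mostly on RABA2b. RLP30, which is needed for the response to a protein of the fungus Sclerotinia, had 1600 and 1469 bp in jmj28-2 seedlings, 1327 and 1163 bp in atx1/2, and 1511 and 1492 bp in Col-0. Both atx1/2 values lay under the other 4, but the limma adjusted p was 0.552 against Col-0. In every library the RLP30 peak covered more of the adjacent AT3G05350 than of RLP30, so its length is not that of RLP30 alone.

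RLP51, known as SNC2 from a mutant with constitutive defence, and RLP44, which links the cell wall to brassinosteroid signalling, were covered over their whole bodies of 1782 and 1238 bp in all 6 libraries. The same held for RLP57 (1584 bp) and RLP33, and for no other member. For such genes the length over the body cannot show a longer peak. RLP52, linked to resistance to powdery mildew, had 1559 and 1697 bp in jmj28-2 seedlings, 1691 and 1766 bp in atx1/2, and 1718 and 1696 bp in Col-0, with overlapping ranges. RLP42, the receptor for fungal polygalacturonases, had no peak in any library.

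The longest stretches of peak among the members marked in all libraries were on RLP32, RLP33, RLP19, RLP46 and RLP36. RLP19 had 3003 and 2820 bp in jmj28-2 seedlings, 3059 and 3471 bp in atx1/2, and 3427 and 2753 bp in Col-0, so that the 2 libraries of Col-0 spanned the values of jmj28-2. RLP46 had 2615 and 2580 bp in jmj28-2 seedlings, 2665 and 2695 bp in atx1/2, and 2750 and 2731 bp in Col-0. The genotypes did not overlap for RLP46, and the same held for RLP1 and RLP48. The share of all genes that separate in this way was not counted, so nothing is read from it. The log2 change of RLP46 in jmj28-2 was -0.07 ± 0.010 (SE). It gave the lowest limma adjusted p among the members not known beforehand, 0.176, which did not pass. RLP36 had 2570 and 2047 bp in jmj28-2 seedlings, 2571 and 2559 bp in atx1/2, and 2571 and 2452 bp in Col-0, with jmj28-2 replicate 2 the lowest. In jmj28-2 replicate 1, both atx1/2 libraries and Col-0 replicate 1 this was part of a peak of 4727 to 4836 bp that also covered CIPK7. In jmj28-2 replicate 2 and Col-0 replicate 2 that peak was divided. The part mostly on RLP36 was weak there, at score percentiles 3.52 and 6.58 of the lists.

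The shortest were on RLP48, RLP47, RLP34, RLP14 and RLP45. RLP48 had 207 and 238 bp in jmj28-2 seedlings, 244 and 246 bp in atx1/2, and 266 and 291 bp in Col-0, just past the minimum of 200 bp. These bases were the edge of a peak on WRNEXO in all 6 libraries. RLP47 had between 697 and 891 bp, RLP34 between 815 and 1042 bp, RLP14 between 976 and 1230 bp and RLP45 between 1070 and 1256 bp, with genotypes overlapping in all 4. Just under the minimum of 200 bp lay RLP15, with 156 bp in Col-0 replicate 1, and RLP27, with 158 bp in jmj28-2 replicate 2. Just above it lay RLP15, with 202 bp in Col-0 replicate 2, and RLP48 with 207 bp. Over the 25 members with a peak in every library the median of the mean length was 1638 bp, or 56.1% of the gene body. Over all 16267 such genes it was 1410 bp, or 61.2%.

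Differences between jmj28-2 and Col-0 in the presence of a peak were counted in 2 ways, and their cause was not tested. A lost gene had a peak in each Col-0 library but in no jmj28-2 library, and a gained gene had the reverse. Of the 52 RLP genes 3 were lost, RLP23, RLP27 and RLP38, against 0.627% of all protein-coding genes, and none was gained, against 0.266%. In atx1/2 the same 3 genes were lost, against 0.514% of all genes, and none was gained, against 0.598%. Of all genes, 0.24% were lost in both mutants. The lengths of RLP23 and RLP38 were known when the family was selected. The excess of losses over these shares is therefore not a result about the family. The mutants were set against the same 2 Col-0 libraries, so a fault of those libraries would appear in both comparisons.

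RLP23 recognises nlp20, a peptide of necrosis-inducing proteins found in bacteria, fungi and oomycetes. No base of the gene lay in a peak in either jmj28-2 library or either atx1/2 library, whereas its whole body of 2846 bp was covered in both Col-0 libraries. The Col-0 peaks (chromosome 2, 13859567 to 13862901 and 13859523 to 13862801, TAIR10) reached 208 and 252 bp into VAMP725, a vesicle trafficking gene. They were weak, with scores of 74.2 and 26.8, at percentiles 8.13 and 1.67 of their own lists. The score is the authors' value for each peak and is used here to rank peaks within a list.

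The genes around RLP23 also varied. RLP22, the nearest RLP gene, had no peak in jmj28-2 or atx1/2, against 1508 and 0 bp in Col-0. On the other side GRP23, a gene for a glycine-rich protein, had 0 and 0 bp in jmj28-2 seedlings, 1076 and 1076 bp in atx1/2, and 1076 and 0 bp in Col-0. The next gene outward, LUH, which encodes a LEUNIG-type corepressor, had 1319 and 1327 bp in jmj28-2 seedlings, 1416 and 1452 bp in atx1/2, and 1467 and 1403 bp in Col-0. VAMP725, between the 2 RLP genes, had no base of peak in either mutant. The stretch without peaks thus took in RLP22, VAMP725, RLP23 and GRP23 in jmj28-2, and RLP22, VAMP725 and RLP23 in atx1/2.

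RLP38 had no base of peak in either jmj28-2 or atx1/2 library, against 2381 and 2171 bp in Col-0, of a gene body of 2398 bp. Its Col-0 peaks (chromosome 3, 8226884 to 8229602 and 8226934 to 8229392) covered no other protein-coding gene by 200 bp. They ranked at percentiles 6.13 and 0.864, again near the bottom of their lists. With a score of at least 100 required, neither RLP23 nor RLP38 had a peak in any library and no RLP gene was lost in either mutant. RLP37, which adjoins RLP38, had no peak in any library. The nearby DNA repair gene XRCC4 had 1227 and 1196 bp in jmj28-2 seedlings, 1136 and 1051 bp in atx1/2, and 1239 and 1199 bp in Col-0.

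RLP27 was lost by a narrow margin. It had 131 and 158 bp in jmj28-2 seedlings, 112 and 8 bp in atx1/2, and 1389 and 210 bp in Col-0. In Col-0 replicate 2 the 210 bp were the edge of a peak on NSP2, and a peak of RLP27 itself, of 2357 bp, was present in Col-0 replicate 1 alone. With at least 1 bp or at least 500 bp required, RLP27 was no longer lost and RLP23 and RLP38 were.

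**Figure D2:**
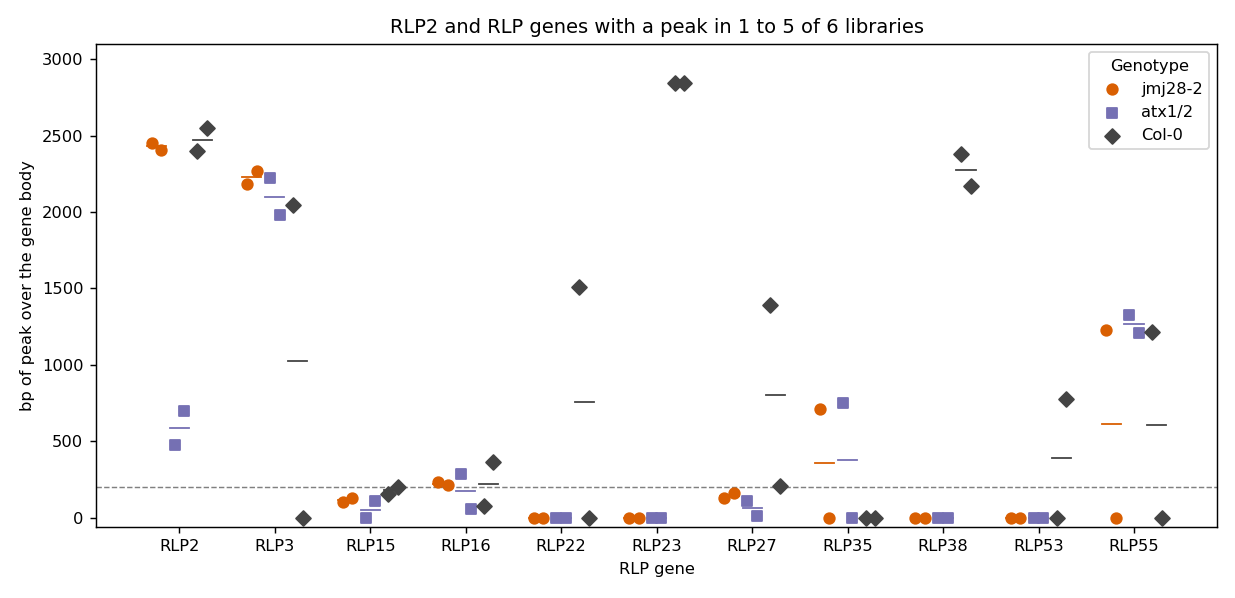
Length of peak over the gene body (bp) for RLP2 and the 10 RLP genes with a peak in 1 to 5 libraries. Each point is a library, the short lines are means of the 2 libraries of a genotype, and the dashed line is the minimum of 200 bp. RLP23 and RLP38 stand above 2000 bp in both Col-0 libraries and at 0 in all 4 mutant libraries.

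RLP2, which is related to CLV2, differed in atx1/2. It had 2455 and 2405 bp in jmj28-2 seedlings, 473 and 700 bp in atx1/2, and 2397 and 2547 bp in Col-0. Of a gene body of 2547 bp, the atx1/2 libraries covered the least, and their values did not overlap those of jmj28-2 or Col-0. In atx1/2 the remaining bases were the edge of a peak on RTFL11, the neighbouring gene of a small ROTUNDIFOLIA-like peptide. In both jmj28-2 libraries and in Col-0 replicate 1 a separate peak covered the rest of RLP2, and in Col-0 replicate 2 a single peak of 4237 bp spanned RTFL11 and RLP2. That separate peak ranked at percentiles 2.02 and 0.304 in jmj28-2 and 11.04 in Col-0 replicate 1, so in jmj28-2 it lay among the weakest of the list. With a score of at least 100 required, RLP2 had 642 and 599 bp in the jmj28-2 libraries, 473 and 700 bp in the atx1/2 libraries, and 2397 and 2547 bp in Col-0.

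RLP3, known as RFO2 for its part in resistance to Fusarium oxysporum, adjoins RLP2. It had 2183 and 2271 bp in jmj28-2 seedlings, 2220 and 1982 bp in atx1/2, and 2049 and 0 bp in Col-0. All 4 mutant libraries had a peak, at percentiles 8.68 and 14.2 in jmj28-2 and 23.9 and 16.2 in atx1/2, while the peak of Col-0 replicate 1 ranked at percentile 0.122. When only the 14291 highest-scoring peaks of each list were used, Col-0 had 82 and 0 bp, and RLP3 counted as gained in both mutants. Its log2 change of 1.86 ± 1.32 in jmj28-2 and 1.78 ± 1.32 in atx1/2 did not pass (limma adjusted p = 0.882 and 0.874).

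**Figure D3:**
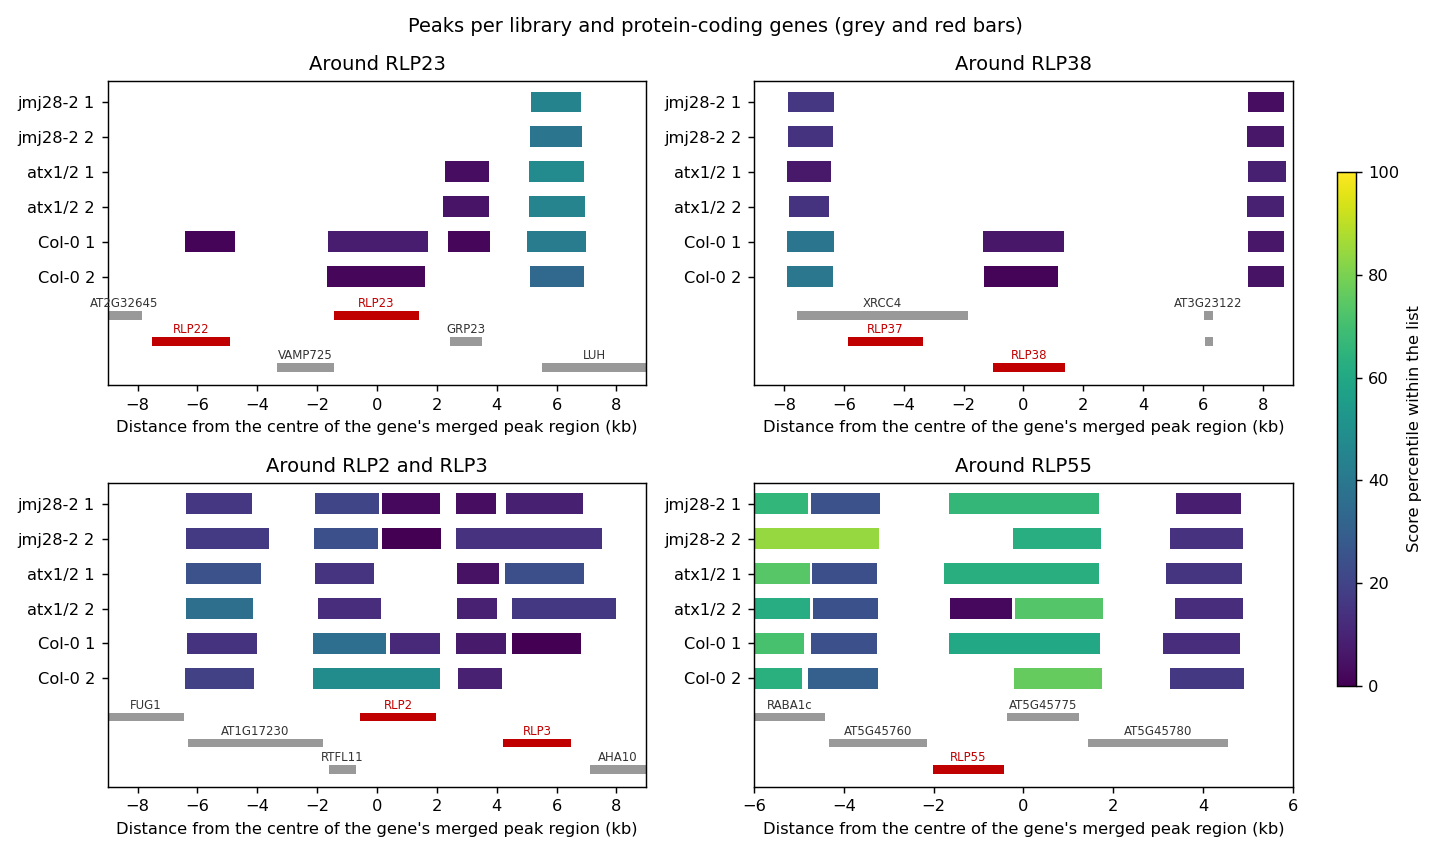
Peaks of each library (rows) around RLP23, RLP38, RLP2 with RLP3, and RLP55, by distance in kb from the centre of the gene's merged peak region, coloured by score percentile within the list. Bars under the rows are protein-coding genes, RLP genes in red. The RLP23 and RLP38 peaks appear in Col-0 alone and rank at percentile 8.13 or lower, and the RLP2 peak has no counterpart in atx1/2.

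The other members with a peak in some libraries did not follow genotype. RLP55 had 1226 and 0 bp in jmj28-2 seedlings, 1326 and 1206 bp in atx1/2, and 1213 and 0 bp in Col-0. In jmj28-2, atx1/2 and Col-0 replicate 1 this was part of a long peak of 3342 to 3447 bp that also covered AT5G45775 and AT5G45780, and in atx1/2 replicate 2 it was a weak peak of its own at percentile 2.27. RLP35 had 713 and 0 bp in jmj28-2 seedlings, 753 and 0 bp in atx1/2, and none in Col-0. RLP53 had no peak in either mutant, against 0 and 779 bp in Col-0.

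RLP16 had 233 and 212 bp in jmj28-2 seedlings, 285 and 58 bp in atx1/2, and 78 and 364 bp in Col-0, in every case the edge of a peak on GDPD5. RLP15 had 101 and 128 bp in jmj28-2 seedlings, 0 and 106 bp in atx1/2, and 156 and 202 bp in Col-0, the edge of the RLP14 peak. Between the 2 libraries of a genotype, 2 RLP genes differed in having a peak in jmj28-2 (1.82% of all genes did), 2 in atx1/2 (1.67%) and 6 in Col-0 (1.93%). The 6 were RLP3, RLP15, RLP16, RLP22, RLP53 and RLP55.

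Length over the gene body was compared with limma on log2(bp of peak + 200) across the 17971 genes with at least 1 bp of peak in at least 2 libraries, of which 33 were RLP genes. The fold changes understate the change of short peaks because of the added 200 bp. In jmj28-2, 2 RLP genes (RLP23 and RLP38) were called shortened at an adjusted p under 0.05, against 0.863% of all tested genes, and none lengthened, against 0.417%. The same 2 were called shortened in atx1/2, against 0.79% of all tested genes, and none lengthened, against 0.735%. Both passed the filter through Col-0 alone, and RLP23 had no spread in Col-0 because its body was fully covered, so these calls describe what the peak lists already show. Without either Col-0 library both genes had a peak in 1 library only and left the fit, so no call could be made. The difference in length stayed at -2846 bp for RLP23 and was -2171 or -2381 bp for RLP38 in each mutant. Without Col-0 replicate 1, RLP3 was called lengthened in both mutants.

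None of the 30 other tested members was called in either mutant. In limma their lowest adjusted p was 0.176 in jmj28-2 and 0.552 in atx1/2, with 3 and 2 of them at an unadjusted p under 0.05, against 8.15% and 8.49% of all tested genes. For the 24 members other than RLP2 with a peak in all libraries, the log2 change lay between -0.18 and 0.06 in jmj28-2, with 13 shorter and 7 longer, against 53.5% shorter and 33.4% longer over all tested genes. In atx1/2 it lay between -0.24 and 0.14, with 10 shorter and 10 longer, against 49.99% and 37.1%. The sets are unlike, because the shares over all tested genes include genes with a peak in some libraries only. RLP33, RLP44, RLP51 and RLP57, whose whole bodies were covered in every library, are among the 24 and showed no change. The median over all 33 tested RLP genes was -0.01 in jmj28-2 and 0.00 in atx1/2, against -0.01 and 0.00 over all tested genes. A length that did not change does not show that the level of H3K4me3 did not change.

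The mutants were also compared with each other. No RLP gene was lost in atx1/2 relative to jmj28-2, against 0.248% of all genes, and none was gained, against 0.685%. In limma no RLP gene was called shortened, against 0.412% of tested genes, or lengthened, against 0.907%, and 3 of the 30 members not known beforehand had an unadjusted p under 0.05, against 7.56% of all tested genes. RLP2 differed most in length, with 473 and 700 bp in atx1/2 against 2455 and 2405 bp in jmj28-2. For RLP57 the division into peaks differed but the covered length did not follow it. The atx1/2 peaks of RLP57 were 3423 and 3387 bp wide, against 5029 and 5177 bp in jmj28-2 seedlings, where they reached over AT5G65820 into CGR3, but the Col-0 peaks were 3359 and 5031 bp wide and so spanned both states. Over the whole region (chromosome 5, 26338650 to 26343826), peaks covered 5055 and 5050 bp in the atx1/2 libraries and 5029 and 5177 bp in the jmj28-2 libraries, against 4997 and 5031 bp in Col-0.

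Scores ranked the RLP peaks across nearly the whole range of the lists. Over the 25 members with a peak in all libraries, the median percentile over libraries ran from 4.19 for RLP47 to 99.5 for RLP57, with a median of 44.2. RLP57, RLP51 and RLP26 ranked highest. In every library the RLP57 peak also covered AT5G65820 and the RLP26 peak also covered ATP3, so these ranks are not those of the RLP gene alone. The RLP51 peaks covered no other protein-coding gene by 200 bp. Over the 10 members with a peak in some libraries it ran from 0.64 for RLP53 to 61.6 for RLP55, with a median of 6.48. The exceptions among the 10 were RLP55 and RLP16, whose percentiles came from peaks shared with neighbouring genes.

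**Figure D4:**
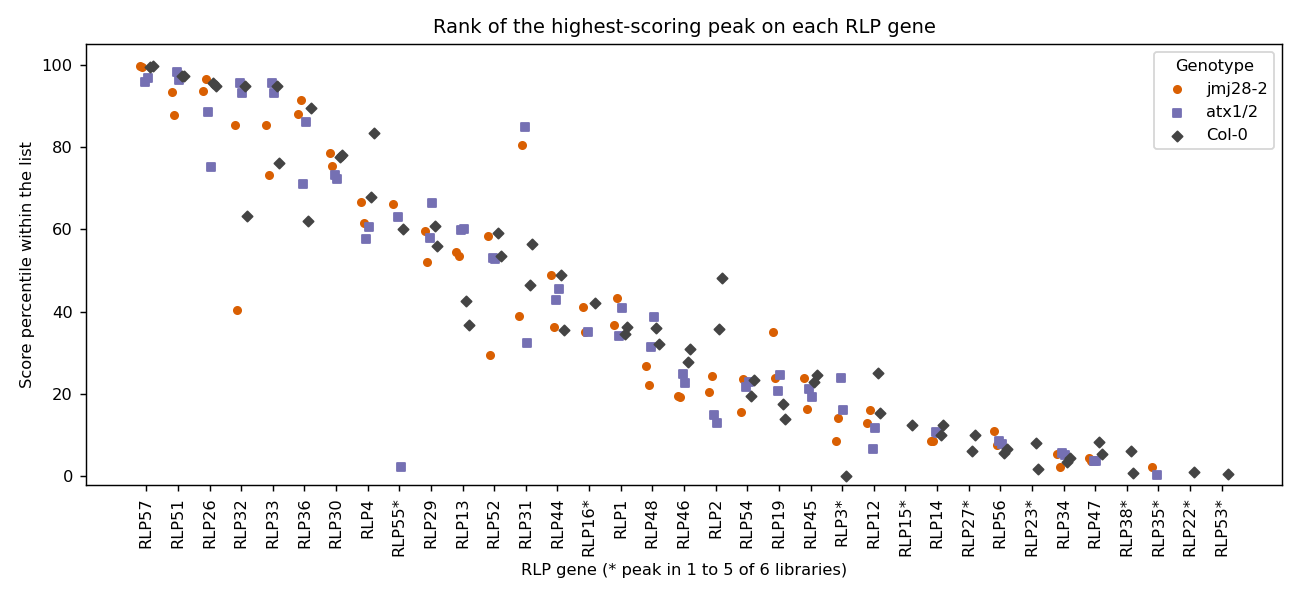
Percentile, within its own list, of the highest-scoring peak with at least 200 bp on each RLP gene, ordered by the median over libraries. Points are libraries, and an asterisk marks genes with a peak in 1 to 5 libraries. Most asterisked genes lie at the right, with medians of 14.2 or lower apart from RLP55 (61.6) and RLP16 (38.1).

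Many RLP genes lie in tandem, and presence of the mark differed within and between these arrays. With at most 5 other protein-coding genes allowed between neighbours, 29 members fell into 11 arrays and 23 lay alone. Of the 29, 10 had a peak in all libraries, 12 in none and 7 in some. Of the 23, these numbers were 15, 5 and 3. Tandem genes outside the family were not counted, so nothing is read from this difference. The array of RLP39, RLP40, RLP41 and RLP42 on chromosome 3 had no peak on any member in any library, and neither had RLP20 and RLP21 on chromosome 2. The pairs RLP30 with RLP31 and RLP32 with RLP33 on chromosome 3 had a peak on both members in every library. In the array of RLP24 to RLP28, RLP26 had 2100 and 2263 bp in jmj28-2 seedlings, 2009 and 2112 bp in atx1/2, and 2562 and 2139 bp in Col-0, while RLP24, RLP25 and RLP28 had none. In the array of RLP13 to RLP16, RLP13 and RLP14 had peaks of their own, and RLP15 and RLP16 only the edges of their neighbours' peaks. Reads of near-identical copies may not be placed uniquely, how the authors treated them is not given in the sources used here, and their part in the absence of a peak was not tested.

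By chromosome, 6 of 14 RLP genes on chromosome 1 had a peak in every library, 3 of 11 on chromosome 2, 8 of 16 on chromosome 3, 4 of 5 on chromosome 4 and 4 of 6 on chromosome 5. The shares of all genes by chromosome were not counted, so nothing is read from these numbers. Some peaks were shared with other genes. Of the 25 members with a peak in all libraries, 13 had peaks that covered no other protein-coding gene by 200 bp. For RLP30 and RLP48 the peak always covered more of another gene. The share of all genes with shared peaks was not counted, so sharing is not read as a trait of the family.

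A list of RLP partners and downstream genes also held the developmental RLPs CLV2 and TMM, and most of its genes had a peak in every library. Of the 23 listed genes, 21 were found in the gene table (PBL30 and PBL31 were not matched). Of these, 20 had a peak in every library, against 59.3% of all genes. SOBIR1 had 2030 and 1948 bp in jmj28-2 seedlings, 2076 and 2007 bp in atx1/2, and 1972 and 2108 bp in Col-0, and BAK1 had 1516 and 1567 bp in jmj28-2 seedlings, 1556 and 1668 bp in atx1/2, and 1606 and 1578 bp in Col-0. EDS1, PAD4 and ADR1, which act downstream of RLPs in immunity, and BIK1 also had a peak in all 6 libraries. Of the developmental RLPs, CLV2 had between 1341 and 1518 bp and TMM had 1831 bp in every library. ERL1, a receptor kinase partner of TMM, was the single gene of the list with no peak. None of the 20 with a peak passed limma in either direction in any of the 3 comparisons, and the lowest adjusted p was 0.349. Over all tested genes 1.28% passed in jmj28-2, 1.52% in atx1/2 and 1.32% between the mutants, so the absence of calls among 20 genes is not a result about them.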

How the data were processed

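H3K4me3 ChIP-seq was done on seedlings of 3 genotypes, with 2 libraries each; 3 H3 samples of the series were not analysed here. The authors deposited 1 list per library, with positions and a score for each peak; per the submitters' processing notes the build was TAIR10 and the tools included MACS 1.4, Bowtie2 2.2.8, deepTools 2.4.1 and ChIPseeker, with no roles given. Starts were converted to count from 1, and 0 to 6 chloroplast peaks per list were left out. Genes came from a RefSeq table of TAIR10.1, without strand, used for names and overlap only: in 109 of 109 windows of 1000 kb peaks overlapped gene bodies best at a shift of at most 400 bp. All printed coordinates are those of peaks. Lengths were tested with limma 3.58.1 (R 4.3.3) on all 6 libraries in 1 fit, adjusted by Benjamini-Hochberg over all tested genes in each comparison. The procedure was run on simulated data with normal noise, changed only in genes with some peak in every library. Peaks absent from a single replicate were not simulated, so nothing is read from that run about such genes. Python 3.11.15, pandas 2.3.3, numpy 2.4.6 and matplotlib 3.10.9 were used. The members and gene lists were chosen with earlier results of these data known. Named are RLP genes lost, gained or called, those with a peak in some libraries, those with a published role, the 5 longest and 5 shortest, and listed partners; other names were chosen after their values were seen. Alternatives were other pseudocounts, filters, minimum lengths, peak selections, gene flanks, centring, variance models, a replicate block and leaving out each library. RLP sequences were not used here.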

Additional observations from a re-analysis of the deposited data

How the results depend on the processing

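The RLP losses rest on weak peaks: at a score of at least 100, 0 RLP genes were lost in jmj28-2 and 0 in atx1/2, 1 was gained in atx1/2 against Col-0 (RLP3) and 1 against jmj28-2 (RLP14), and limma called 0 RLP genes in jmj28-2 and 1, RLP2, in atx1/2. With equal numbers of peaks per list, 1 RLP gene (RLP3) was gained in each mutant. With 500 bp on either side of the body, 6 RLP genes had a peak in some libraries only. With each peak given to the gene of largest overlap, an alternative chosen after seeing the data, 1 RLP gene was lost (RLP2) and 1 gained (RLP57) in atx1/2 against jmj28-2, and RLP2 replaced RLP27 among the 3 lost in atx1/2. Between the mutants limma called 1 RLP gene, RLP2, with a pseudocount of 1000 bp, with flanks, and with centred libraries, and in each of these also in atx1/2 against Col-0. In the fit reported above RLP2 was not called in atx1/2 (limma adjusted p = 0.051 against Col-0 and 0.059 against jmj28-2). Its lengths were known beforehand, so nothing is read from its calls in any setting. Leaving out each library in turn gave 3 to 5 RLP genes lost in jmj28-2 and 3 to 5 in atx1/2, 0 to 1 and 0 to 2 gained, and 0 to 1 lost and 0 to 1 gained between the mutants, and 7 to 10 with a peak in some libraries only. Without Col-0 replicate 1 the 5 lost in each were RLP15, RLP23, RLP27, RLP38 and RLP53. Leaving out 1 library, limma called 0 to 2 RLP genes in jmj28-2, 0 to 3 in atx1/2 and 0 to 1 between the mutants: without either atx1/2 library RLP2 was called in both comparisons of atx1/2, where the lone library is assumed to vary like the other groups. RLP54 was called shortened in atx1/2 against Col-0 without either jmj28-2 library and in a fit of the 4 libraries of that comparison only, and between the mutants without jmj28-2 replicate 2. Without either Col-0 library RLP23 and RLP38 left the fit. RLP23 and RLP38 were among the lost genes in every setting tried but the score minimum. Leaving out a library only relaxes the definition of a lost or gained gene. Those runs could therefore not have removed a loss, and nothing is read from its persistence in them. Over all genes limma called 230 (155 shortened, 75 lengthened) in jmj28-2, 274 (142, 132) in atx1/2 and 237 (74, 163) between the mutants. With equal numbers of peaks these were 223 (151, 72), 252 (164, 88) and 212 (95, 117), and at a score of at least 100 they were 243 (140, 103), 291 (117, 174) and 276 (81, 195). Leaving out 1 library moved the lengthened genes to 61 or 74 in atx1/2 without its replicate 1 or 2, and to 95 or 92 between the mutants, where they were 261 without jmj28-2 replicate 2. Without Col-0 replicate 1 or 2 they were 130 or 122 in jmj28-2 and 200 or 185 in atx1/2. With the replicate block all calls were 182, 226 and 194, and no RLP call changed. The labels do not say whether same-numbered libraries share more than a number. Over all tested genes the correlation of replicate differences between genotypes was 0.0109 to 0.0284. Such a value cannot exclude a shared batch, which was not tested further. Depth is unknown, so an absent peak may be a weak one. The cause of these differences was not tested.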

Other observations

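The transcribed pseudogenes RLP18 and RLP49 were not members. RLP18 had no peak in any library. RLP49 had no peak in jmj28-2 or atx1/2, against 863 and 0 bp of peak in Col-0.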
